A study of Mus musculus with 18 samples.

Results

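The 12 mouse colon libraries taken on day 2 after TNBS, a hapten that provokes acute colitis, were ranked by S100a8 and S100a9, and the 6 highest were compared with the 6 lowest. These genes encode the subunits of calprotectin, the main cytosolic protein of neutrophils. The ranking used the sum of log2(TPM + 1) of both genes, called the calprotectin sum here. TPM scales reads by gene length and library total. The sets were therefore chosen by measured values of these same libraries, not by a label, and S100a8 and S100a9 were left out of every test. The tests describe which other genes go with that ranking in the libraries that made it. The series holds 18 libraries, each from about 100 mg of colon. In 6 of them the mice were sham-treated, in 6 they received TNBS and vehicle (Vehicle), and in 6 TNBS and ISM012-042, which the title of the series calls a gut-restricted PHD inhibitor. Strain, age, sex and a clinical or histological score are not among the labels used here, so "high" and "low" refer to the calprotectin sum only. Nothing in the labels states that the libraries of a group came from separate animals, and p-values may then reflect technical spread only.

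Neutrophils are the first leukocytes to enter an injured mucosa. They follow CXC chemokines made by epithelium, stroma and macrophages, their release from the bone marrow is driven by the growth factor G-CSF, and interleukin-1 and interleukin-6 sustain that loop. NF-kB is the transcription factor through which microbial and interleukin-1 signals switch on many of these genes, and the surface epithelium of the colon, which carries salt and water transport, is the layer that the infiltrate crosses.

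The chemokine genes Cxcl1, Cxcl2 and Cxcl3 and the cytokine gene Il6, on which the results turn, are shown by the 150 bases before their transcription start (RefSeq, GRCm38.p6, plus strand). The starts lie at the 3′ end of each window. Capitals mark each match to a form of the NF-kB binding motif, GGG followed by any 2 bases and TTTCC, searched on both strands. The windows are chr5:90891095-90891244 for Cxcl1, chr5:90903749-90903898 for Cxcl2, chr5:90785951-90786100 for Cxcl3 and chr5:30012964-30013113 for Il6.
Cxcl1: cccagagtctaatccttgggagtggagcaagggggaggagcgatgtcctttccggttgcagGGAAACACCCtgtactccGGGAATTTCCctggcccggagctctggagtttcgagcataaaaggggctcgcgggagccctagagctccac
Cxcl2: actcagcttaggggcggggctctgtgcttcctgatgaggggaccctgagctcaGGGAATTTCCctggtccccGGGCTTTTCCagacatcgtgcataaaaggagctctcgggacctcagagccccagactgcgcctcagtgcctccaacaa
Cxcl3: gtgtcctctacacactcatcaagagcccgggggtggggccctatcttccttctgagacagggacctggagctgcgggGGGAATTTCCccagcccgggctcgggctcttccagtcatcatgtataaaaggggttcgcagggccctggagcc
Il6: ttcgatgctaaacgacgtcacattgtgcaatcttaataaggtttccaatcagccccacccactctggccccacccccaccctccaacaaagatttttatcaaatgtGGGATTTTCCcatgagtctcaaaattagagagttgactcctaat
Cxcl1 held 2 matches, at 89 to 80 bases before the start on the minus strand and at 71 to 62 on the plus strand. Cxcl2 also held 2, at 97 to 88 and at 78 to 69, while Cxcl3 held 1 at 73 to 64 and Il6 held 1 at 44 to 35. Of 32851 windows of the same length, 304 (0.925%) held a match. Among the neutrophil chemoattractants and growth factors with a window, 3 of 9 genes did, and among the interleukin-1, interleukin-6 and TNF family cytokines 2 of 12 (Il1rn and Il6), against 291 of 27025 genes (1.08%). A match describes letters only and is no evidence of binding.

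In order of the calprotectin sum, the high set was Vehicle replicate 2 (27.0), ISM012-042 replicate 2 (23.1), and Vehicle replicates 6 (17.3), 1 (16.4), 3 (14.8) and 4 (13.8). The low set was ISM012-042 replicates 1 (13.3) and 5 (12.5), Vehicle replicate 5 (12.4), and ISM012-042 replicates 4 (12.1), 3 (9.78) and 6 (7.80). The levels fell off steeply from the top. S100a8 stood at 12002 TPM in Vehicle replicate 2 and 2994 TPM in ISM012-042 replicate 2, against 128 to 435 TPM in the other 4 high libraries and 13.6 to 114 TPM in the low set. S100a9 ran in parallel, from 107 to 10994 TPM in the high set and 14.2 to 86.2 TPM in the low set. The sum of every sham library, 1.62 to 6.63, lay below that of every TNBS library. The last library inside the high set and the first outside it, Vehicle replicate 4 and ISM012-042 replicate 1, differed little, with 128 and 114 TPM of S100a8. No gap in the values marks that border.

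**Figure D1:**
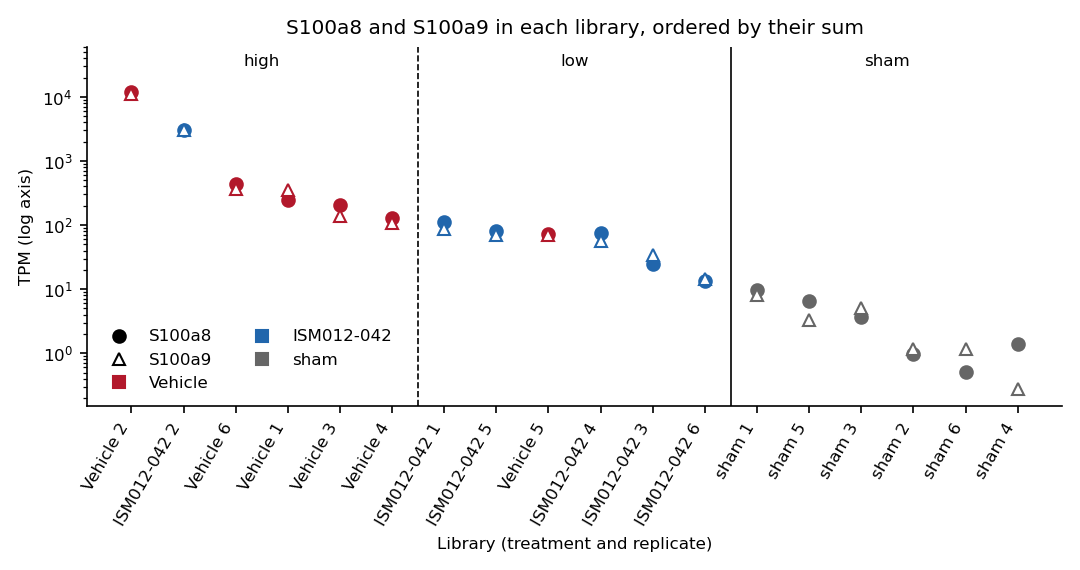
S100a8 (circles) and S100a9 (triangles) in TPM on a log axis, 1 library per position, ordered by the calprotectin sum and coloured by treatment; the dashed line separates the high from the low set and the solid line the sham libraries. Vehicle replicate 2 and ISM012-042 replicate 2 stand far above the rest, at 12002 and 2994 TPM of S100a8, and the values on either side of the dashed line, 128 and 114 TPM of S100a8, lie close together.

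The sets were nearly those of the treatments: 5 of 6 high libraries were Vehicle and 5 of 6 low libraries were ISM012-042. With treatment as a covariate, a difference between the sets rests on the exceptions, ISM012-042 replicate 2 and Vehicle replicate 5, and set and treatment can be told apart only through them. Whether the difference depends on treatment was not tested: that test was to be run only with at least 2 libraries of each treatment in each set. ISM012-042 replicate 2 had the lowest share of TPM from mitochondrially encoded genes among the 12 (20.1%) and Vehicle replicate 5 the highest (57.8%). That share ran from 20.1 to 45.2% in the high set and from 26.9 to 57.8% in the low set. In TPM a large share of such transcripts lowers the value of every other gene.

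All 18 libraries carried colon markers: the intestinal transcription factor Cdx2 at 31.0 to 139 TPM and the mucin Muc2 at 443 to 2594 TPM. Hoxb13, which marks the distal end of the gut, ranged from 3.01 to 219 TPM in the high set and from 0.329 to 211 TPM in the low set, a wide spread within each. In Vehicle replicates 2, 6 and 1 it stood at 84.5, 95.6 and 179 TPM, and in Vehicle replicates 3, 4 and 5 at 3.01, 3.40 and 1.52 TPM. Its rank correlation with the calprotectin sum was 0.71 within Vehicle and -0.03 within ISM012-042. ISM012-042 replicate 2 and Vehicle replicate 5, on which the treatment-adjusted difference rests, stood at 219 and 1.52 TPM. Hoxb13 was among 6 measures per library that were compared by exact two-sided permutation over 924 regroupings, without treatment as a covariate. The others were the mitochondrial share, the mean levels of adipocyte, smooth muscle and red blood cell genes, and the number of genes at 1 TPM or more (12932 to 14632 in the high set, 12681 to 14294 in the low). The 6 measures gave p between 0.299 and 0.805, and 0.591 to 0.805 after Benjamini-Hochberg adjustment. A miss at this size does not show equality. TPM keep no record of depth, so depth is unknown and low values have no counting interval.

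Across 14003 genes with a mean of at least 1 TPM, none differed between the sets in limma at an adjusted p under 0.05 (0% higher, 0% lower), and the smallest adjusted p was 0.0920. Without adjustment 5798 genes had p under 0.05 with a higher level in the high set and 91 with a lower one. The median log2 difference of all genes was 0.50. After median-ratio scaling it was 0.01, and the unadjusted counts became 847 and 846. Vehicle replicate 5 had a scaling factor of 0.592. Leaving out Vehicle replicate 3 gave 3330 genes higher and 38 lower, leaving out Vehicle replicate 5 gave 183 and 4, and leaving out Vehicle replicate 4 gave 1 and 0. In 11 genes (0.0786%) all 6 high libraries lay above all 6 low ones, and in 2 (0.0143%) all 6 lay below.

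Spearman's rho between each gene and the calprotectin sum over the 12 TNBS libraries had a median of 0.13 over all genes, or 0.03 after median-ratio scaling. By permutation with 100000 resamples and adjustment over all 14003 genes, 7 genes (0.05%) rose with the sum and none (0%) fell. At an unadjusted p under 0.05, 745 genes (5.32%) had a positive and 259 (1.85%) a negative rho. That balance turned with the processing: it was 632 and 1087 with mitochondrially encoded genes left out of the totals, and 95 and 200 without the 2 libraries named next. Entered in limma as a continuous predictor with treatment as covariate, the sum gave 727 genes (5.19%) that rose with it and 31 (0.221%) that fell, but 0 and 0 when Vehicle replicate 2 and ISM012-042 replicate 2 were left out. Those 2 libraries lie farthest from the median of the sum, and correlations without them are given in brackets or beside the value for the lists and most genes below. In the 10 remaining libraries no gene passed the adjusted threshold.

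The 7 genes were Hdc, Trim15, Csf3, Cxcl2, Stfa2l1, Cxcl1 and the predicted gene Gm5483, with adjusted p of 0.0350 to 0.0400 from the permutation test. The smallest unadjusted p, that of Hdc, Csf3 and Gm5483 among others, was 1.0e-05, the least that 100000 resamples allow. These adjusted p therefore depend on the number of resamples and do not measure the strength of the correlation. None of the 7 passed after ranks were centred on treatment means or without Vehicle replicate 1, 2 or 6. In bulk tissue, more neutrophils and more RNA per neutrophil cannot be told apart. Hdc, histidine decarboxylase, which makes histamine and is active in neutrophils and mast cells, stood at 2.02, 8.15 and 167 TPM (lowest, median and highest) in the high set. It stood at 0.403, 1.25 and 1.95 TPM in the low set and at 0.254 to 0.610 TPM in sham. The 2 sets did not overlap. Its rho was 0.99 and Pearson's r on the log2 scale 0.98, against 0.98 and 0.90 without the 2 highest libraries.

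Trim15, a ubiquitin ligase of the TRIM family, followed the ranking as closely from a higher base. It stood at 15.5, 38.4 and 68.9 TPM in the high set and 5.34, 10.9 and 19.8 TPM in the low set. Its rho was 0.99 and its r 0.93, against 0.98 and 0.95 without the 2 highest libraries. Unlike Hdc it was not scarce without TNBS: sham libraries held 6.87 to 38.5 TPM, so that 1 sham library lay in the middle of the high set. Stfa2l1, a stefin expressed in neutrophils, stood at 3.29, 16.4 and 426 TPM in the high set and 0.318, 1.98 and 4.08 TPM in the low set, with 1 low library inside the high range. Its rho was 0.96 and its r 0.98, against 0.93 and 0.91 without the 2 highest. Stefin genes exist in near-identical copies, so reads may be split among them.

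The label, a neutrophil gradient, was checked against other neutrophil genes. Of 28 listed, 24 were tested. Of these, 21 had a positive rho at an unadjusted p under 0.05, against 5.32% of all genes. The median rho was 0.78, against 0.13 for all genes. With the sum as a continuous predictor 19 rose, against 5.19% of all genes. Without the 2 highest libraries the median was 0.62. These genes come from the same cells as S100a8 and S100a9, and they describe what was ranked rather than support it. The filter on a mean of 1 TPM also bears on the count: 7 of the 24, Cxcr2, Ngp, Ltf and Fpr1 among them, passed it only through the high set, with a mean under 1 TPM in the low set, so the sign of their rho was partly fixed by the filter.

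Cxcr2, the receptor through which neutrophils sense CXC chemokines, stood at 0.967, 4.12 and 37.7 TPM in the high set and 0.116, 0.471 and 1.21 TPM in the low set, with a rho of 0.81 (0.68 without the 2 highest). Mmp9, gelatinase B of neutrophil granules, stood at 1.88, 9.15 and 104 TPM against 0.695, 1.82 and 4.88 TPM, with a rho of 0.75 (0.56). Both sets overlapped for each gene, with 1 low library above the lowest high one for Cxcr2 and 3 for Mmp9. Ngp, which encodes a granule protein of immature neutrophils, had a mean of 14.1 ± 26.8 TPM in the high set (SD, n = 6) and 0.853 ± 0.780 in the low set. Ly6g, singled out after its values were seen, was highest in sham, with 352 ± 265 TPM in sham, 82.9 ± 95.04 in the low set and 266 ± 182 in the high set. It belongs to a family of similar genes, and the counting of shared reads is not given in the sources used here.

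The chemokines that recruit neutrophils gave the highest median rho of the 36 lists, 0.92, and 0.87 without the 2 highest libraries. Of 12 listed genes 7 were tested. A positive rho at an unadjusted p under 0.05 was found in 6, against 5.32% of all genes. With the continuous predictor 6 rose, against 5.19% of all genes. 3 of the 7, Cxcl3, Ppbp and Csf3, passed the filter only through the high set, so these counts are a description. In 2 of the 7 the high set lay entirely above the low one, against 0.0786% of all genes. These were Cxcl3 and Csf3, both among the 3 that passed the filter only through the high set. All 7 had a positive rho within Vehicle and within ISM012-042 taken apart, as did 7343 of all 14003 genes (52.4%). Il17a, Il17f, Il23a, Il22 and Csf2 fell below the level filter, and Il22 reached at most 2.09 TPM in any library.

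Cxcl1, Cxcl2, Cxcl3, Cxcl5 and Ppbp share 1 cluster on chromosome 5, between 90759298 and 90905938 (GRCm38.p6), and are related in sequence. Cxcl2 stood at 9.33, 55.3 and 1148 TPM in the high set, at 0, 2.83 and 10.3 TPM in the low set and at 0 to 1.10 TPM in sham. Its rho was 0.96 and r 0.96, against 0.93 and 0.95 without the 2 highest libraries. 1 library of the low set, ISM012-042 replicate 1, lay above the lowest high one. Cxcl1 stood at 2.73, 8.74 and 182 TPM against 0.580, 1.99 and 6.57 TPM, with 2 low libraries above the lowest high one. Its rho was 0.95 and r 0.97, against 0.92 and 0.87. Its rho within the 6 Vehicle libraries was 0.94, where the median over all genes was itself 0.77, and within the 6 ISM012-042 libraries 1. After median-ratio scaling Cxcl1 had 0.83 within Vehicle, against a median of 0.09 over all genes.

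Cxcl3 separated the sets completely, at 6.27, 20.1 and 341 TPM in the high set and 0.114, 1.10 and 1.73 TPM in the low set. Its log2 difference was 4.50 ± 1.16 (SE; limma, adjusted p 0.0920), and its rho 0.90 (0.82 without the 2 highest) missed the adjusted threshold at 0.140 by permutation. Cxcl5, made largely by epithelium and stroma, stood at 3.75, 15.8 and 303 TPM against 0.139, 2.10 and 4.64 TPM, with a rho of 0.92 (0.87). It had the largest log2 difference of the 5, 5.0 ± 1.06, also at an adjusted p of 0.0920. Ppbp, the platelet basic protein chemokine, was listed at 0 in all 6 sham libraries and stood at 0.838 to 53.4 TPM in the high set and 0 to 1.54 TPM in the low set, with a rho of 0.92 (0.87). Of these 5 genes, Cxcl1, Cxcl2 and Cxcl3 are those with the motif shown above.

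Csf3, which encodes G-CSF, was low in level but ordered almost as the ranking itself. It stood at 0.513, 1.44 and 44.2 TPM in the high set, at 0, 0.0605 and 0.211 TPM in the low set and at 0 to 0.0710 TPM in sham. The sets did not overlap. Its rho was 0.98 (0.96 without the 2 highest) and r 0.95 (0.88). Within each treatment its rho was 1, or 0.94 after median-ratio scaling. Over all genes the median within Vehicle was 0.77, or 0.09 after that scaling. Values this far below 1 TPM rest on few reads whose number is not known here. Csf1, the macrophage growth factor of the list, had 9.81 ± 6.54 TPM in the high set and 5.25 ± 2.13 in the low set, without passing any of these tests.

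**Figure D2:**
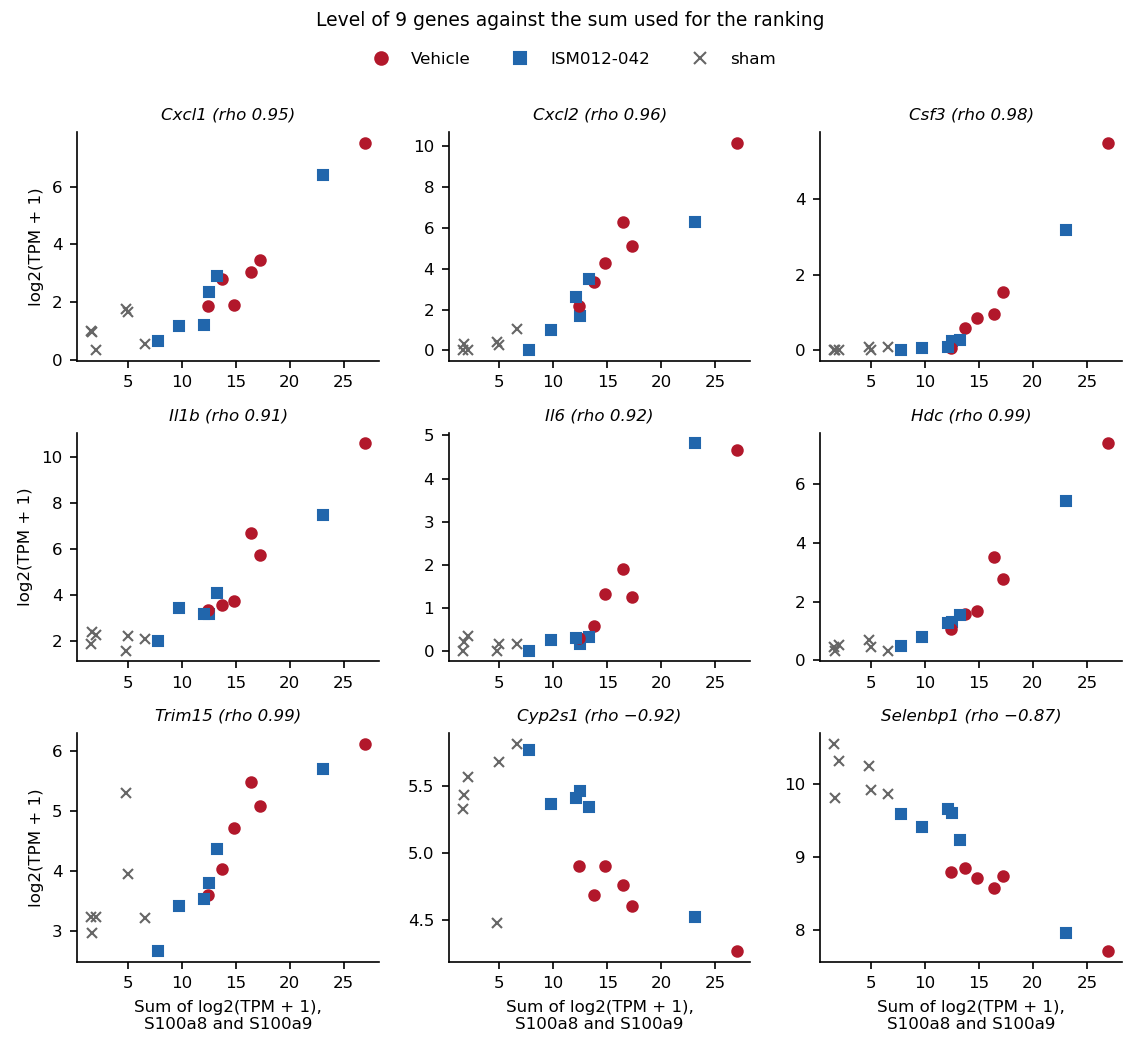
Level of 9 genes, log2(TPM + 1), against the calprotectin sum, 1 point per library, with Vehicle as red circles, ISM012-042 as blue squares and sham as grey crosses; the rho in each title is over the 12 TNBS libraries. The 2 points at the right of each panel are Vehicle replicate 2 and ISM012-042 replicate 2; Cxcl1, Cxcl2, Csf3, Il1b, Il6, Hdc and Trim15 climb along the ranking, and Cyp2s1 and Selenbp1 descend.

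The cytokines of the interleukin-1, interleukin-6 and TNF families followed, with 12 of 15 genes tested and a median rho of 0.69 (0.44 without the 2 highest). A positive rho at an unadjusted p under 0.05 was found in 8, against 5.32% of all genes. 6 of the 12, among them Il6, Il1a, Osm, Il11 and Inhba, passed the filter only through the high set, so this too is a description. Il6 separated the sets. It stood at 0.488, 2.12 and 27.2 TPM in the high set, at 0, 0.209 and 0.244 TPM in the low set and at 0 to 0.274 TPM in sham, so that the low set did not stand above sham. Its highest library was ISM012-042 replicate 2, not the library with the highest sum. Its log2 difference was 3.13 ± 0.85 (limma, adjusted p 0.0920) and its rho 0.92 (0.88).

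Il1b, the secreted interleukin-1 of myeloid cells, stood at 10.9, 78.8 and 1564 TPM in the high set and 3.04, 8.64 and 16.0 TPM in the low set, with 1 low library above the lowest high one. Its rho was 0.91 (0.84) and its log2 difference 3.52 ± 1.35 (limma, adjusted p 0.0953). Il1a, the form released by dying cells, stood at 0.995, 5.37 and 152 TPM against 0.0960, 0.606 and 1.56 TPM, with a rho of 0.89 (0.83). Osm, oncostatin M, stood at 1.66, 7.74 and 57.8 TPM against 0.241, 0.708 and 1.69 TPM, with a rho of 0.86 (0.76).

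Other members tracked the ranking less. Tnf stood at 0.905, 4.51 and 37.2 TPM in the high set and 0.601, 1.37 and 3.94 TPM in the low set, and 4 low libraries lay above the lowest high one. Its rho of 0.58 went to 0.27 without the 2 highest libraries. Il11, an interleukin-6 relative made by fibroblasts, had a rho of 0.71 (0.52), the alarmin Il33 0.67 (0.44), and Inhba, a subunit of activin, 0.57 (0.26). Il1rn, the natural antagonist of interleukin-1, held 80.6 ± 75.7 TPM in the high set, 30.5 ± 18.6 in the low set and 35.4 ± 15.9 in sham. Il18, an interleukin-1 relative made by epithelium, held 108 ± 55.0, 70.3 ± 47.9 and 180 ± 114 TPM.

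Genes that NF-kB switches on to limit itself, with those of prostaglandin synthesis, had a median rho of 0.55 (0.28 without the 2 highest). Of these 17 genes, 8 were positive at an unadjusted p under 0.05, against 5.32% of all genes. Cebpb, a transcription factor of myeloid and acute-phase genes, stood at 16.8, 24.7 and 175 TPM in the high set and 8.57, 13.7 and 16.8 TPM in the low set. The sets touched without overlapping. Its rho was 0.94 (0.89), at an adjusted p of 0.0600 by permutation. Socs3, which restrains signalling by interleukin-6 and G-CSF, had a rho of 0.85 (0.75), with 20.0 to 116 TPM in the high set, 6.09 to 41.0 TPM in the low set and 1 sham library at 45.1 TPM. Ier3, an early survival gene, had a rho of 0.85 (0.73).

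Immediate early genes gave 4 of 13 positive at an unadjusted p under 0.05, against 5.32% of all genes, and a median rho of 0.42 (0.13). Fosl1, a partner of Jun, had a rho of 0.87 (0.77) at 0.561 to 14.1 TPM in the high set and 0 to 2.10 TPM in the low set. With a mean of 0.703 TPM in the low set, Fosl1 passed the filter only through the high set, so the sign of its rho was partly fixed. Dusp1, a phosphatase that shuts off MAP kinases, had a rho of 0.78 (0.62). In the list for inflammasomes and lytic cell death, 4 of 14 had a positive rho at an unadjusted p under 0.05, among them Ripk3, the kinase of necroptosis. Of these 14 genes, 2 passed the filter only through the high set. Ripk3 stood at 21.7, 45.6 and 66.6 TPM in the high set and 9.24, 19.3 and 37.7 TPM in the low set, with a rho of 0.78 (0.61). Mlkl, the pore-forming substrate of Ripk3, had a rho of 0.75 (0.66).

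CC chemokines, which draw monocytes, eosinophils and lymphocytes, were divided: 6 of 15 were positive at an unadjusted p under 0.05, against 5.32% of all genes. Their median rho was 0.03 (-0.03 without the 2 highest). 1 of the 15 passed the filter only through the high set. Ccl2, the main attractant of monocytes, stood at 2.81, 13.1 and 113 TPM in the high set and 1.5, 3.31 and 6.52 TPM in the low set, with a rho of 0.81 (0.67). Ccl7 had 0.74 (0.56) and Ccl9 0.66 (0.43). Monocyte and macrophage genes gave 8 of 25 at an unadjusted p under 0.05 and a median rho of 0.41, or 0.13 without the 2 highest libraries, where the median over all genes was -0.09. Of these 25 genes, 1 passed the filter only through the high set.

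Arg1, the arginase of wound macrophages, stood at 7.67, 128 and 626 TPM in the high set and 1.29, 11.6 and 28.4 TPM in the low set, against 0.486 to 1.86 TPM in sham. Its log2 difference was 4.58 ± 1.27 (limma, adjusted p 0.0920), and its rho was 0.76 (0.59), with 3 low libraries above the lowest high one. Itgam, an integrin of neutrophils and macrophages alike, had 0.70 (0.48). The scavenger receptors Cd163 and Mrc1, carried by resident macrophages, had 0.66 (0.48) and 0.39 (0.12). Lilr4b, an inhibitory receptor of myeloid cells, separated the sets at 2.46 to 110 TPM against 0.893 to 2.45 TPM and had a rho of 0.93 (0.88).

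Lymphocyte and antigen presentation genes showed no such order. Median rho was -0.08 (-0.10 without the 2 highest) over 14 genes of T and NK cells, -0.02 (-0.32) over 12 of B and plasma cells and -0.19 (-0.38) over 11 of dendritic cells and MHC class II, with no positive rho at an unadjusted p under 0.05 among them. ISM012-042 replicate 3, the second lowest library of the ranking, carried the highest mean level of the 3 lists among the TNBS libraries. Their part in the contrast was not tested.

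Matrix proteases and plasminogen activators, which open tissue to migrating cells, had a median rho of 0.63 (0.40 without the 2 highest). Of these 18 genes, 10 were positive at an unadjusted p under 0.05, against 5.32% of all genes. Mmp3, stromelysin, stood at 3.97, 5.15 and 73.7 TPM in the high set and 1.20, 1.78 and 4.32 TPM in the low set, with a rho of 0.69 (0.48) and 1 low library above the lowest high one. Adamts1, a protease of the extracellular matrix, had a rho of 0.83 (0.71). Mmp13, Mmp19, Adamts4, Timp1, Plau, Plaur and Plat were also among the 10. Collagen and fibroblast genes had none of 16 at that threshold and a median rho of 0.33 (-0.10), and Fn1, fibronectin, had 0.54 (0.21).

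Of the genes of smallest p in the treatment-adjusted contrast, the naming rule took 12 on the higher side, among them Bmp1, Ccdc80, Ext1, Fbn1, Igfbp5, Il6st, Klf7, Rab26os, Rbfox2, Tnfrsf1a and Vip, with log2 differences of 0.93 to 2.41 and an adjusted p of 0.0920 in limma. All 12 had their highest value of the 12 libraries in ISM012-042 replicate 2 and their lowest in Vehicle replicate 5, the pair on which that contrast rests. Their rho with the sum was 0.03 to 0.83, and -0.41 to 0.71 without the 2 highest libraries. Vip, a neuropeptide of enteric neurons, was one of them, at 22.9 to 197 TPM in the high set and 9.67 to 45.2 TPM in the low set. Gal, galanin, another neuropeptide, separated the sets at 28.7, 45.5 and 187 TPM against 14.8, 22.3 and 25.2 TPM. Its log2 difference was 2.07 ± 0.50 (limma, adjusted p 0.0920), its rho 0.75 (0.58), and its rho within the ISM012-042 libraries alone 0.09. The list of enteric neurons and glia as a whole had a median rho of -0.23 (-0.36 without the 2 highest), with 3 of 14 positive. Over all genes the median was 0.13 (-0.09).

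**Figure D3:**
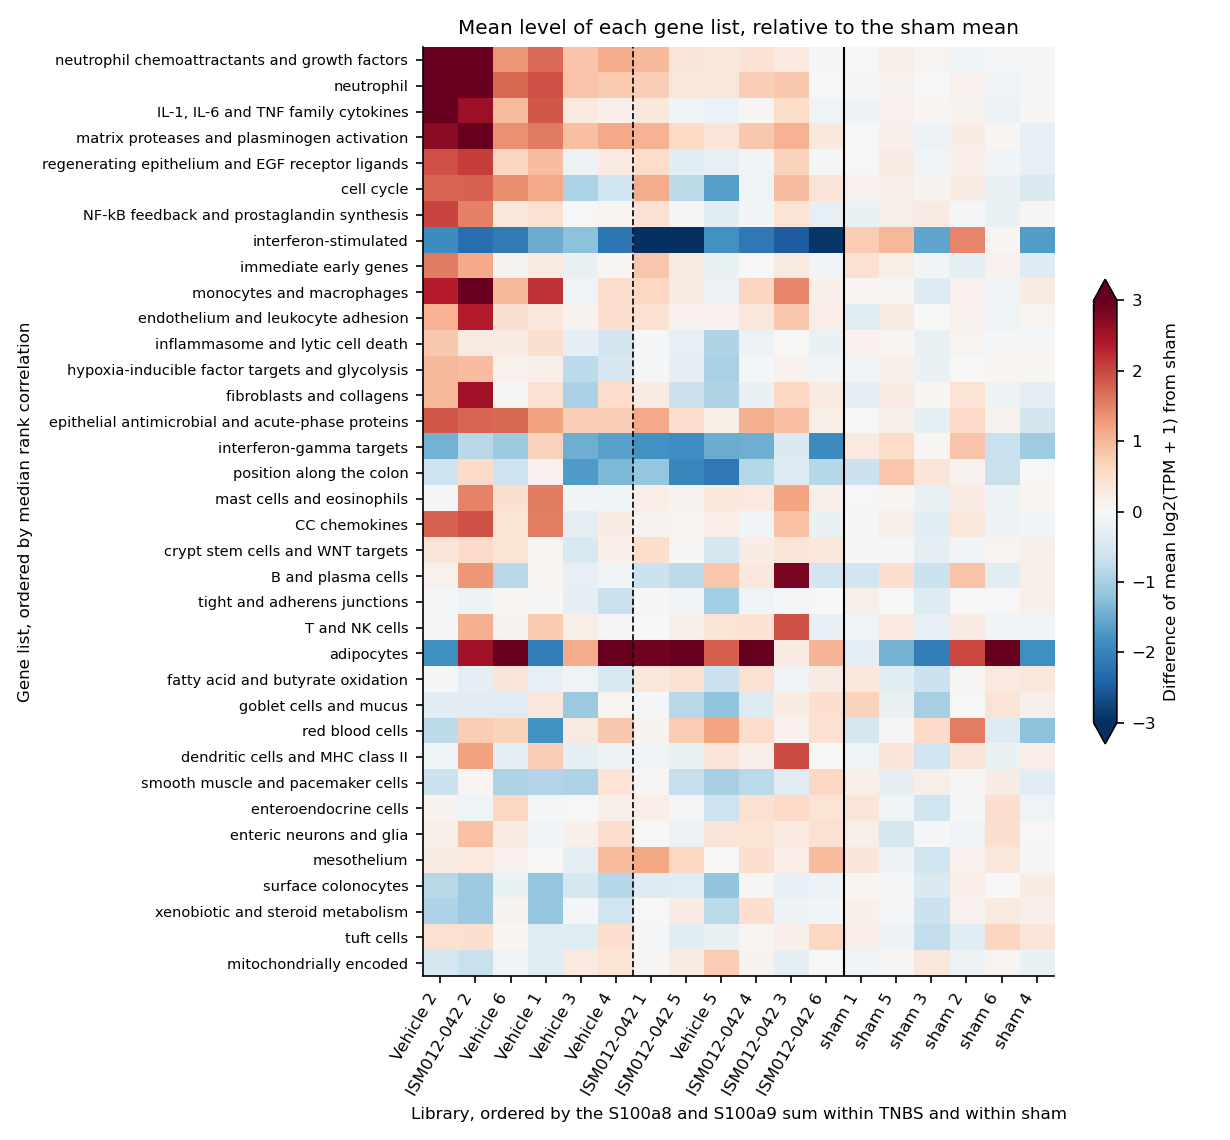
Mean log2(TPM + 1) of each of 36 gene lists in each library, minus the mean of the 6 sham libraries, as colour from blue (lower) to red (higher), with colours saturated at 3 in either direction; columns are ordered by the calprotectin sum within TNBS (left of the solid line, split into high and low by the dashed line) and within sham. The 2 leftmost columns carry the deepest red of the upper rows, Vehicle replicate 5 is blue in many rows, and the interferon-stimulated row is blue across all 12 TNBS columns.

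Epithelial genes of regeneration and ligands of the EGF receptor had a median rho of 0.58 (0.29 without the 2 highest). Of these 21 genes, 10 were positive at an unadjusted p under 0.05, against 5.32% of all genes. In each treatment taken apart 20 of 21 had a positive rho, against the 52.4% of all genes. Ctgf, a target of the Hippo pathway, stood at 7.96, 18.6 and 101 TPM in the high set and 6.18, 8.46 and 12.6 TPM in the low set, with 3 low libraries above the lowest high one and a rho of 0.66 (0.43). Anxa1, annexin A1, had 0.48 (0.10). Of the 21 genes, 1 passed the filter only through the high set. Epgn, an EGF receptor ligand outside the list, separated the sets at 0.135 to 6.22 TPM against 0 to 0.113 TPM. Asb5, a muscle gene, did so at 0.312 to 6.90 TPM against 0.05 to 0.161 TPM. Epgn and Asb5 were named because their sets did not overlap. Both passed the filter only through the high set, with low-set means of 0.035 and 0.116 TPM, so their values are a description.

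All 20 cell cycle genes had a positive rho, with a narrow range of 0.49 to 0.62. Their median was 0.58 (0.27 without the 2 highest), where the median over all genes was 0.13 (-0.09). At an unadjusted p under 0.05, 9 of the 20 had a positive rho, against 5.32% of all genes. Ccnb2, a mitotic cyclin, stood at 5.85, 28.3 and 44.1 TPM in the high set and 2.28, 14.2 and 21.4 TPM in the low set, with 4 low libraries above the lowest high one and a rho of 0.62 (0.35). Plk1, a mitotic kinase, had 0.59 (0.30). As a continuous predictor the sum gave 1 of the 20 that rose, near the 5.19% of all genes, and 0 after median-ratio scaling. The mean level of the list was lowest in Vehicle replicate 5, the library with the largest mitochondrial share, and the part of that share in this order was not tested.

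The list of antimicrobial and acute-phase proteins of the epithelium was divided: 6 of 24 were positive at an unadjusted p under 0.05, against 5.32% of all genes. Its median rho was 0.31 (0.21 without the 2 highest). Lcn2, which withholds iron from bacteria, stood at 17.8, 162 and 2601 TPM in the high set and 4.84, 45.7 and 68.4 TPM in the low set, with a rho of 0.73 (0.54). Saa3, serum amyloid A3, had 0.71 (0.49), and Lrg1, an acute-phase glycoprotein, 0.65 (0.41). Lcn2, Saa3 and Lrg1 are also made by other cells, Lcn2 by neutrophils. Duoxa2, the maturation factor of the peroxide-making oxidase Duox2, stood at 12.7, 32.9 and 57.2 TPM against 6.06, 9.13 and 29.1 TPM, with a rho of 0.77 (0.60), and Duox2 had 0.68 (0.47).

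The Reg3 lectins, which bind bacteria at the surface, did not follow the ranking. Reg3b stood at 18.1, 1862 and 19326 TPM in the high set and 224, 2697 and 5972 TPM in the low set. Its lowest values among the 12 were in ISM012-042 replicate 2 (18.1 TPM) and Vehicle replicate 1 (24.7 TPM), 2 of the 4 libraries with the highest sum, and its highest in Vehicle replicate 3. Reg3g stood at 6.55, 272 and 1363 TPM against 44.1, 166 and 746 TPM.

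No gene that descended along the ranking passed the adjusted threshold. Cyp2s1, an epithelial cytochrome P450, stood at 18.2, 24.0 and 28.87 TPM in the high set and 28.94, 40.9 and 53.6 TPM in the low set. Its sets did not overlap, but the library at the border of the low set was its only Vehicle library, and the other 5 lay at 39.5 TPM or above. Its rho was -0.92 and r -0.86 (-0.85 and -0.85 without the 2 highest), at an adjusted p of 0.0653 by permutation. Within treatments its rho was -0.83 for Vehicle and -0.77 for ISM012-042. Selenbp1, a selenium-binding oxidase of mature colonocytes, stood at 207, 399 and 460 TPM against 444, 723 and 803 TPM, and at 890 to 1495 TPM in sham. Its lowest library of the low set was again Vehicle replicate 5. Its rho was -0.87 and r -0.92 (-0.77 and -0.77), its log2 difference -0.91 ± 0.30 (limma, adjusted p 0.0920).

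Ramp1, the subunit that forms the receptor of the neuropeptide CGRP, had a rho of -0.85 (-0.75), Tcea3, a transcription elongation factor, -0.83 (-0.72), and Arhgef19, a guanine nucleotide exchange factor, -0.82 (-0.78). The surface colonocyte list as a whole was divided: 4 of 30 had a negative rho at an unadjusted p under 0.05, against 1.85% of all genes. Among the 4 were Selenbp1 and the protease Mep1a (-0.64, and -0.42 without the 2 highest). The median rho of the list was -0.27 (-0.21). The water channel Aqp8 did not follow the ranking, at 13.5, 82.3 and 252 TPM in the high set and 15.3, 76.2 and 354 TPM in the low set. Nor did the chloride exchanger Slc26a3, at 101, 223 and 283 TPM against 39.7, 207 and 731 TPM, or Muc2, at 918, 1194 and 2424 TPM against 1049, 1270 and 2594 TPM.

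Hypoxia-inducible factor is the substrate whose breakdown PHD enzymes start. Its target genes with glycolysis gave 4 of 26 positive at an unadjusted p under 0.05 (Ldha, Hk2, Eno1 and Gapdh), against 5.32% of all genes. Their median rho was 0.34, or -0.05 without the 2 highest libraries. Hif1a stood at 22.7, 102 and 183 TPM in the high set and 11.8, 37.4 and 62.0 TPM in the low set, with a rho of 0.52 (0.18) and 0.89 and -0.029 within Vehicle and within ISM012-042. Within Vehicle the median rho over all genes was itself 0.77, and the 0.89 stands beside that background. After median-ratio scaling that median was 0.09, and Hif1a again had 0.89 within Vehicle. Mitochondrially encoded genes ran the other way, with a median rho of -0.45 (-0.07 without the 2 highest) and all 13 negative. The 26 interferon-stimulated genes had a median rho of 0.43 (0.45), beside the 0.41 (0.13) of the monocyte and macrophage genes. After centring on treatment means the interferon-stimulated median was -0.01, against 0.60 for the monocyte and macrophage genes and 0.44 for all genes. Within Vehicle it was -0.09 and within ISM012-042 0.09, so these genes did not follow the sum inside either treatment.

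**Figure D4:**
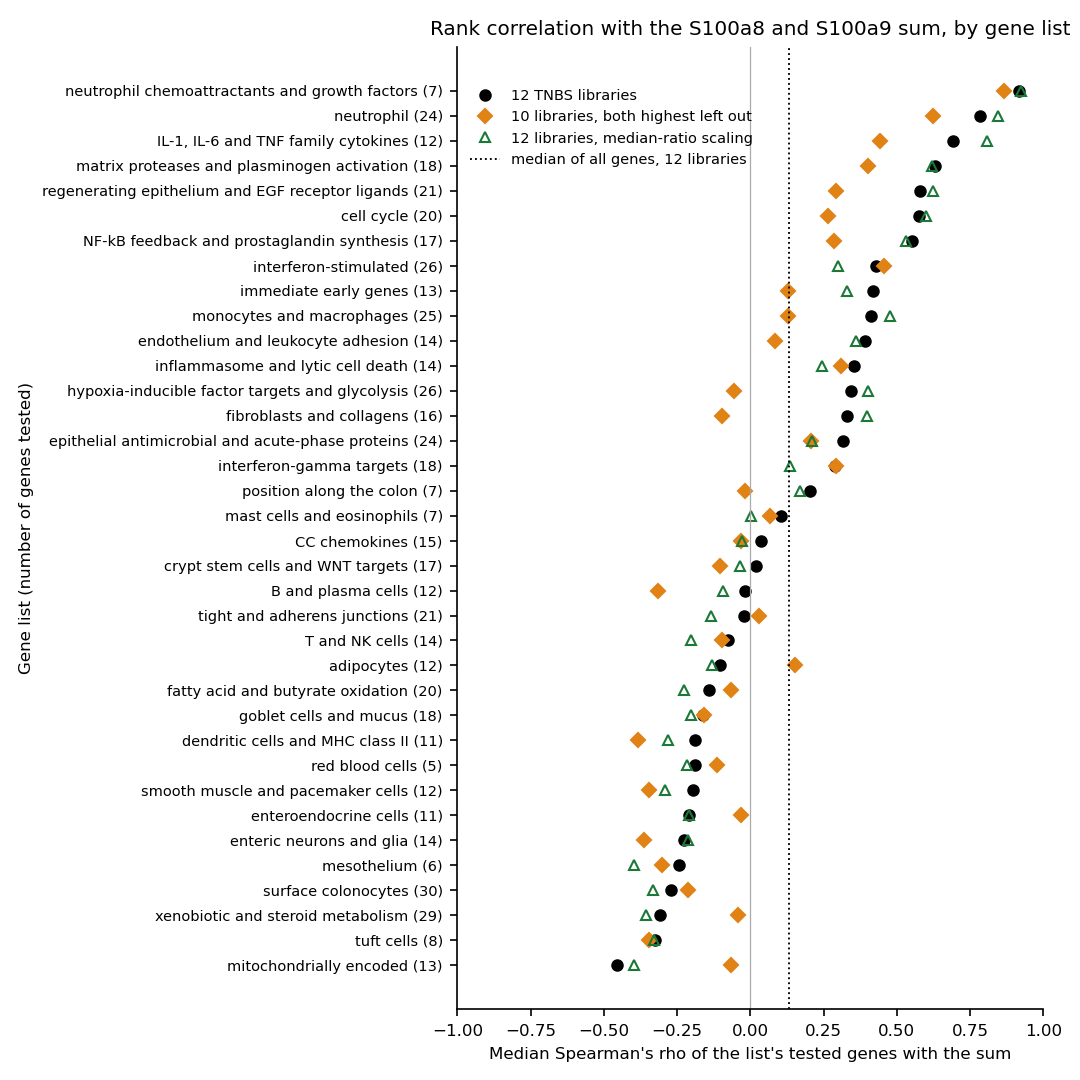
Median Spearman's rho with the calprotectin sum for each of 36 lists (number of tested genes in brackets), over 12 libraries (black circles), over 10 libraries without the 2 highest (orange diamonds) and over 12 after median-ratio scaling (green triangles); the dotted line is the median of all genes, 0.13. Neutrophil chemoattractants, at 0.92, 0.87 and 0.92, keep nearly the same value in the 3 settings, while cell cycle and regeneration are at 0.27 and 0.29 without the 2 highest.

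The low set was also set against sham, to see which differences from sham are present where calprotectin is low. The low libraries were chosen for low S100a8 and S100a9 and hold 5 ISM012-042 libraries and 1 Vehicle library. With all 18 libraries in 1 limma fit and treatment within TNBS as a term, 29 of 13967 genes (0.208%) were higher and 581 (4.16%) lower in the low set. All 6 low libraries lay above all 6 sham libraries in 78 genes (0.558%) and below in 156 (1.12%). That fit depends on Vehicle replicate 5: without it, 0 genes were higher and 0 lower. Without the treatment term, 24 were higher and 164 lower, and without the term and that library, 26 and 107. In that last fit the low set holds ISM012-042 libraries only, so low calprotectin and treatment cannot be told apart in it. None of 24 neutrophil genes and none of 7 chemoattractants passed. Of 7 genes that mark position along the colon, 3 were lower in the low set (4.16% of all genes). Without the treatment term and Vehicle replicate 5 it was 0 of the 7. Their median log2 difference was -1.42 (all genes, -0.18). Hoxb13 stood at 9.05 to 288 TPM in sham and 0.329 to 211 TPM in the low set. The part of colon position in this comparison was not tested.

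Interferon-stimulated genes, the antiviral program downstream of type I interferon, fell in the low set against sham: 20 of 26 passed and 0 rose. Of all genes 4.16% were lower. The median log2 difference of the list was -2.56 (all genes, -0.18), and 11 lay entirely below sham, against 1.12% of all genes. The count was also 20 without the treatment term and Vehicle replicate 5. Irf9, the DNA-binding subunit of the interferon-activated factor, stood at 13.7, 17.8 and 25.0 TPM in the low set and 34.5, 63.0 and 75.6 TPM in sham (log2 difference -1.57, limma adjusted p 0.00288). Oasl1, an inhibitor of interferon production, stood at 20.3, 28.6 and 33.0 TPM against 54.4, 165 and 316 TPM (-2.22, adjusted p 0.00738). Isg15, a ubiquitin-like modifier, was spread most: 8.35, 15.4 and 82.6 TPM in the low set, with Vehicle replicate 5 at the top, against 53.2, 435 and 1267 TPM in sham (-3.27, adjusted p 0.0193).

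The sham libraries were themselves uneven for these genes, since replicates 3 and 4 held the lowest values of Irf9, Oasl1 and Isg15. In the high set Oasl1 stood at 31.5, 44.9 and 67.9 TPM, with 1 low library above its lowest value and its highest values inside the sham range. Targets of interferon-gamma gave 6 of 18 lower and 0 higher, against 4.16% and 0.208% of all genes. Without the treatment term and Vehicle replicate 5, the number lower was 5.

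Surface colonocyte genes gave 10 of 30 lower and 1 higher against sham (3 and 1 without the treatment term and Vehicle replicate 5). Over all genes 4.16% were lower and 0.208% higher in the fit with the term and all libraries. Aqp8 stood at 680 to 1117 TPM in sham, above every low library (log2 difference -4.33, limma adjusted p 0.00698). Car4, a carbonic anhydrase of the brush border, stood at 306, 565 and 658 TPM in the low set and 821 to 2048 TPM in sham, without overlap (-1.53, adjusted p 0.00678). Slc26a3 stood at 725 to 1888 TPM in sham, and 1 low library reached 731 TPM (-2.81, adjusted p 0.00670). In the high set the highest values of Aqp8, Car4 and Slc26a3 (252, 574 and 283 TPM) also lay below the lowest sham value.

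Of the lectins and acute-phase genes, Reg3b stood at 0.478 to 60.6 TPM in sham, below every low library (log2 difference 8.35, limma adjusted p 0.00988), yet not every high one. Reg3g (4.95, adjusted p 0.0374) and Hp, haptoglobin (4.91, adjusted p 0.0418), also rose. Without Vehicle replicate 5 none of the 9 genes named in this comparison passed, with adjusted p of 0.128 to 0.390. Without that library and without the treatment term, Irf9, Oasl1, Isg15, Aqp8, Car4 and Slc26a3 passed, and Reg3b, Reg3g and Hp did not (adjusted p 0.0524 to 0.167).

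**Figure D5:**
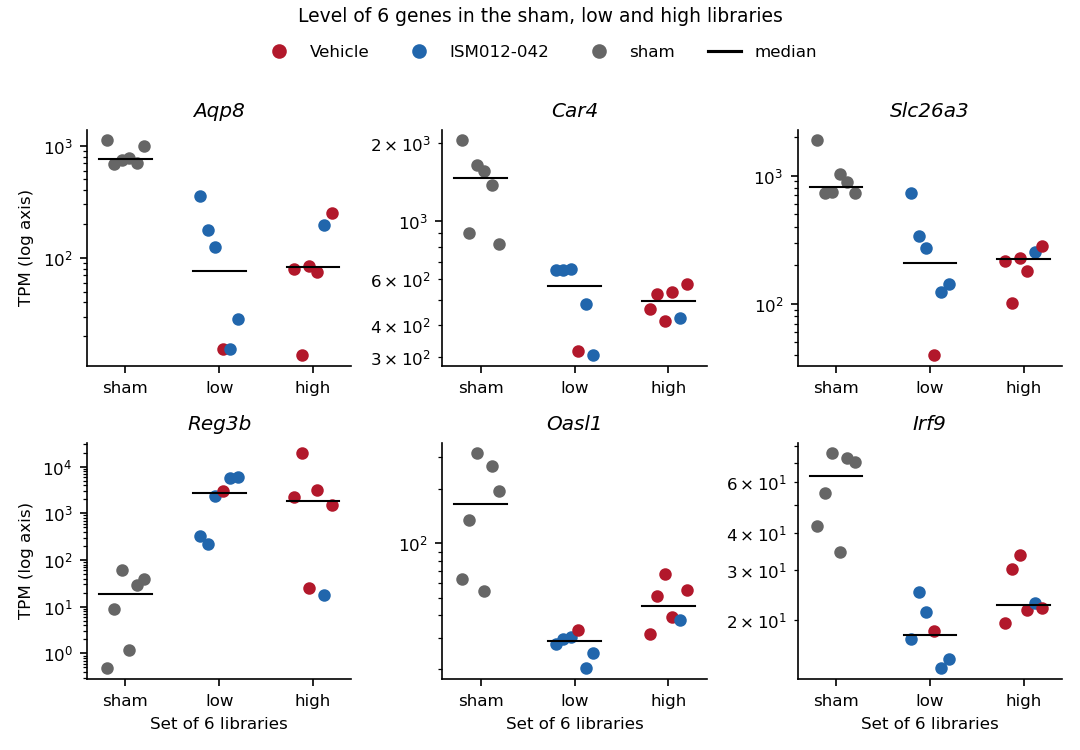
TPM on a log axis of 6 genes in the 6 sham, 6 low and 6 high libraries, 1 point per library coloured by treatment, with a bar at the median. Aqp8 and Car4 lie below sham in both TNBS sets, Reg3b lies above sham in all low libraries but not in all high ones, and Irf9 and Oasl1 have their lowest medians in the low set.

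In sham, where the ranking took no part, the same correlation was computed for 198 named genes over the 6 libraries by exact permutation of 720 orders. At an unadjusted p under 0.05 there were 3 genes, and none after adjustment (smallest adjusted p 1). The smallest p these 6 libraries allow is 0.00278, and sums there spanned only 1.62 to 6.63.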

How the data were processed

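RNA of mouse colon was measured in 18 libraries of 3 groups of 6. The deposited table holds TPM for 35976 symbols, made by the authors, with a total of 1000000 per library, and the submitters' processing notes name mm10 and DRAGEN 4.0.3 without their roles. How reads were counted, on which annotation and with which strand setting was not stated in the sources used here.

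Groups came from the sample titles. The 6 highest and 6 lowest TNBS libraries were found by the calprotectin sum. The members of the sets, the 36 gene lists (619 genes) and the naming rule were chosen with earlier results of these data known. That rule took the 12 genes per direction of smallest p with a mean of at least 5 TPM, 5 of highest and of lowest rho, up to 4 members per list and a fixed set. Genes called, and genes whose sets did not overlap, were named after their values were seen. Some genes are not reported here.

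Values were log2(TPM + 1). Genes with a mean of at least 1 TPM were tested in limma 3.58.1 (R 4.3.3) with trend and robust settings and Benjamini-Hochberg adjustment at 0.05. Low against sham coded treatment as -0.5 and 0.5 within TNBS and 0 in sham. Correlations used scipy 1.17.1 (Python 3.11.15). The fit and the permutation test were tested on simulated data. No 2 libraries were identical (highest correlation 0.985).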

Additional observations from a re-analysis of the deposited data

Results flagged for a closer look

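Within sets of 6 libraries, a value was singled out when its gap to the next was a larger share of the whole range than Dixon's critical value at 95%. Of 252 sets of values examined, 10 were singled out, 5 in sham, 5 in the low set and 0 in the high set. Chance alone singles out about 5% of independent sets. These sets are not independent, since they share libraries and many of their genes were named for following the ranking. Outlying libraries of the high set can also hide each other, because the rule looks at a single gap. No conclusion is drawn from the count.

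In sham, replicate 3 was the highest for Stfa2l1 (0.347 TPM) and Socs3 (45.1 TPM) and the lowest for Cyp2s1 (21.2 TPM). Sham replicate 5 was the highest for Gm5483 (0.408 TPM), and the other 5 sham libraries were listed at 0 for that gene. Sham replicate 4 was the highest for Slc26a3 (1888 TPM). In the low set, ISM012-042 replicate 3 was the highest for Il11 (0.965 TPM) and Inhba (1.09 TPM), Vehicle replicate 5 the lowest for Itgam (1.84 TPM) and Mrc1 (1.605 TPM) and ISM012-042 replicate 6 the highest for Ramp1 (35.7 TPM).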

How the results depend on the processing

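Genes between the high and low sets (0 higher, 0 lower as reported) became 2266 and 26 with the 4 highest against the 4 lowest, 727 and 31 with the sum as a continuous predictor, and 324 and 59 with that predictor after median-ratio scaling. Leaving out 1 library gave 0 to 3330 higher and 0 to 38 lower. No other alternative, the Hoxb13 level as a covariate and no treatment covariate among them, gave a call. Genes whose rank rose with the sum (7) became 0 with ranks centred on treatment means, with or without scaling, 0 without the 2 libraries farthest from the median, 0 with no filter, 22 after median-ratio scaling and 13 at a mean of at least 5 TPM. Leaving out 1 library gave 0 to 20. With no filter 25027 genes were tested, and the least p that 100000 resamples allow then bounds the adjusted p from below. Genes that fell (0) became 1 after median-ratio scaling and 3 with mitochondrial genes left out, and 0 to 1 with 1 library left out. The cause was not tested.

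Genes of low against sham (29 higher, 581 lower) became 18 higher at a pseudocount of 5, 18 and 379 with no filter, 95 and 373 after median-ratio scaling, 114 and 305 without mitochondrial genes, and 105 and 2099 with only the low and sham libraries. Without the treatment term 164 were lower, or 107 without Vehicle replicate 5 as well, and 116 were higher with scaling. Leaving out 1 library gave 0 to 48 higher and 0 to 898 lower. Hif1a had a rho of -0.029 within ISM012-042, with and without scaling. No other of the 66 genes whose rho was recomputed, and no named log2 difference, changed sign under the alternatives run.

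With the replicate number as a block, 0 genes were higher and 0 lower in low against sham, and 0 and 0 between high and low. Whether the replicate numbers pair libraries was not tested. Same-numbered Vehicle and ISM012-042 libraries had correlated deviations of -0.38 to 0.61, 2 of 6 over 0.1, and 2 of 6 correlated best with their own number. For Vehicle and sham 1 of 6 was over 0.1 and 1 of 6 correlated best with its own number. For ISM012-042 and sham these counts were 3 and 0. TPM hold no depth, so the precision of values under 1 TPM is unknown.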
